A study of Mus musculus with 9 samples.

Results

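The nuclear genes of the respiratory chain encode the subunits of the 5 protein complexes of the inner mitochondrial membrane that carry out oxidative phosphorylation. They were taken by symbol: genes named Ndufa, Ndufb, Ndufc, Ndufs or Ndufv with a number, Sdha to Sdhd, the Uqcr genes, Cox4 to Cox8, and Atp5, without pseudogenes and assembly factors. Of 105 symbols that fit this naming, 18 were pseudogenes, Ndufb1 was not analysed here, and 86 were members, of the 28059 gene IDs in the table. Complex I had 39 members, complex II 4, complex III 8, complex IV 18 and complex V, the ATP synthase, 17. No expression value entered the choice. The measure was RPKM, reads scaled to gene length and sequencing depth, so that levels of different genes can be set side by side.

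RNA was sequenced from YAMC cells, a conditionally immortalized line known as young adult mouse colon cells, which the labels place in the small intestine. The design asks what a CRISPR knockout of Cdk8, a kinase that binds the Mediator complex, does to the transcriptome. Cdk8 knockout clone 1, Cdk8 knockout clone 19 and the wild-type parental line had 3 libraries each, all from cells grown at 32 °C. Each knockout is 1 clone, and no clone with intact Cdk8 was analysed here, so in any comparison with the parental line the effects of losing Cdk8 and of isolating a clone cannot be told apart. The labels do not say whether the libraries of a group came from separate cultures, and p-values therefore measure only the spread between these libraries.

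Complexes I and II pass electrons from NADH and from succinate to ubiquinone, complex III passes them on to cytochrome c, and complex IV, cytochrome c oxidase, passes them to oxygen. Complexes I, III and IV pump protons as they work, and complex V makes ATP as protons flow back. Complexes I, III, IV and V also hold subunits encoded in mitochondrial DNA, which were not analysed here, whereas complex II is wholly nuclear.

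Estimated depth was 21.9 to 42.4 megareads per library. In the 3 clone 1 libraries Cdk8 stood at 10.3, 11.1 and 11.6 RPKM, in the clone 19 libraries at 10.5, 10.3 and 10.3 RPKM, against 17.5, 17.7 and 17.5 RPKM in the parental line. It was lower in clone 1 (log2 fold change -0.66, adjusted p = 7.6e-08, limma) and in clone 19 (-0.74, adjusted p = 3.5e-08, limma), which is the direction of the labels, but it was not absent. Of 16 markers of intestinal epithelium, 4 reached 1 RPKM (Krt8, Krt18, Krt19 and Cdh1), while Epcam, Vil1 and Cdx1 stayed under 1 RPKM and Cdx2 was listed at 0 in all 9 libraries. Their summed level was 986 to 1036 RPKM in clone 1, 969 to 976 RPKM in clone 19 and 614 to 632 RPKM in parental cells. All 5 mesothelial markers were above 1 RPKM, with sums of 1245 to 1275, 1248 to 1256 and 681 to 684 RPKM in the same order of groups, although 1 of them, Msln, averaged 82.6 and 101 RPKM in the clones, against 112 RPKM in parental cells. Of 10 fibroblast and mesenchymal markers 9 reached 1 RPKM, and their sums were 2016 to 2063, 1770 to 1839 and 2079 to 2142 RPKM. These marker levels moved with the groups, and their part in the results on the respiratory chain was not tested. In bulk RNA, fewer cells of a type and less RNA per cell cannot be told apart.

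In each knockout clone, more respiratory chain genes were higher than lower, by modest amounts. In clone 1 against parental cells, 47 of the 78 tested members were higher, 18 were lower and 13 did not pass the test (limma on log2(RPKM + 0.5), adjusted p under 0.05). Over all 12568 tested genes, 72.4% were called, 39.8% higher and 32.6% lower. In clone 19, 44 members were higher, 14 lower and 20 not called, beside 69.0% of all tested genes called, 36.7% higher and 32.3% lower. The comparisons share the parental libraries, so the count in clone 19 is not separate evidence for the count in clone 1. The median log2 fold change of the tested members was 0.17 in clone 1 and 0.12 in clone 19, beside 0.03 and 0.02 over all tested genes. The split between higher and lower depended on scaling: with quantile normalization it was 36 higher and 23 lower in clone 1 and 32 and 19 in clone 19, with medians of 0.08 and 0.05. Over all tested genes, that scaling gave 4761 higher and 4311 lower in clone 1 and 4440 and 4238 in clone 19, with medians of 0.019 and 0.0076.

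The changes were small in size. Only Ndufc1, Uqcr10, Cox4i1 and Cox7a1 changed by at least 1.5-fold in clone 1, all upward, and Ndufc1, Uqcr10 and Cox7a1 in clone 19, and no member fell that far in either clone. Of these, Cox7a1 reached 1 RPKM in only 1 of 3 parental libraries and entered the test through the clones. Over all tested genes, 6.48% were higher and 7.38% lower by this rule in clone 1, and 6.09% and 6.36% in clone 19. The median size of the log2 change, whatever its sign, was 0.20 and 0.17 for the members, beside 0.22 and 0.20 for all tested genes. Of the called members, 62 in clone 1 and 57 in clone 19 had clone libraries that did not overlap the parental ones, and 3 and 1 had some overlap. The share without overlap over all tested genes was not counted. The calls rest on the same libraries, so this separation is no further support for them.

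**Figure D1:**
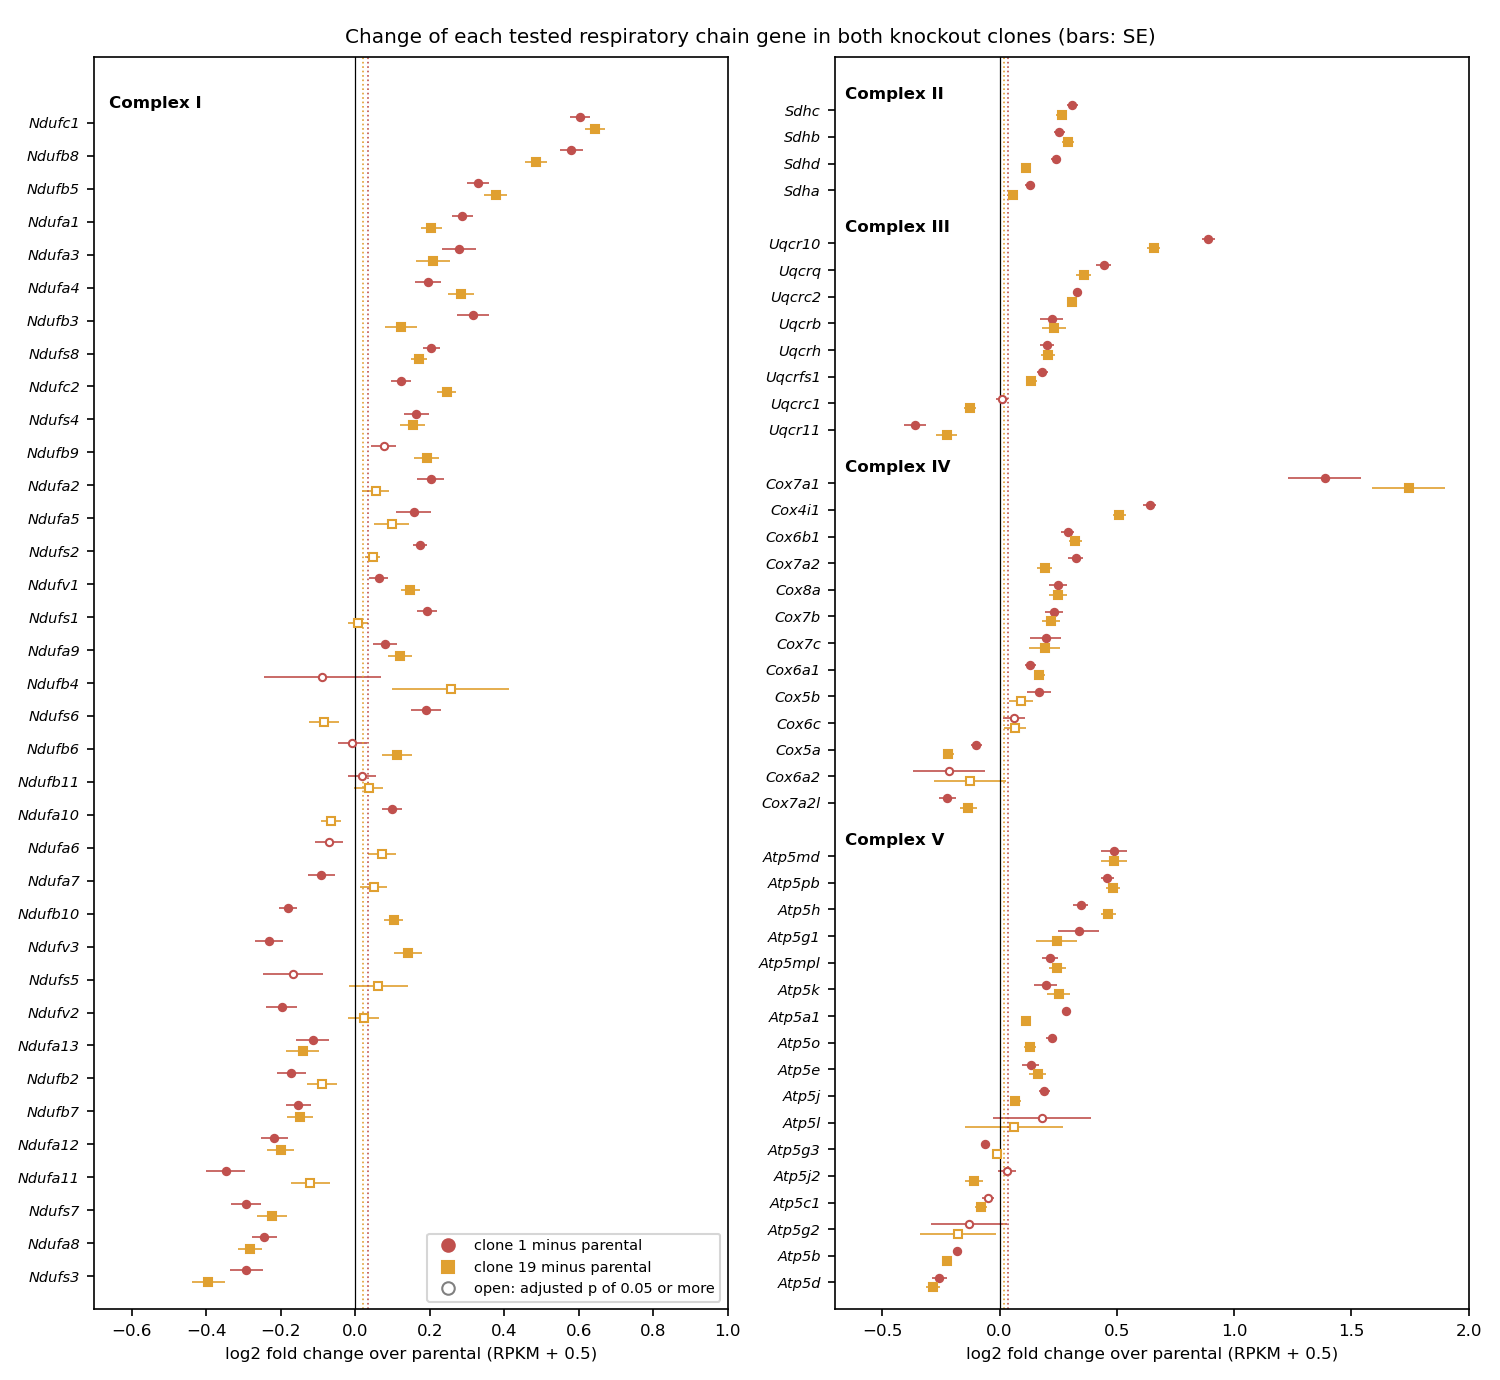
Log2 fold change over parental of each tested member, by complex (x axis: log2 of RPKM + 0.5; y axis: genes ordered by their mean change), for clone 1 (circles) and clone 19 (squares). Bars are standard errors (3 libraries against 3), open symbols did not pass the test, and dotted lines mark the median of all tested genes, 0.03 and 0.02. Complex II lies wholly to the right of 0, whereas complex I spreads to both sides.

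RPKM was also summed over the tested members of each complex, a measure in which abundant members weigh most. Complex III summed to 896, 939 and 914 RPKM in clone 1, with 859, 854 and 851 RPKM in clone 19, against 702, 719 and 715 RPKM in parental cells, a ratio of means of 1.29 and 1.20. Complex IV had ratios of 1.20 and 1.15 and complex II of 1.18 and 1.13. Complex I had 1.06 and 1.07, and complex V 1.03 and 1.01. The RPKM of all gene IDs also summed higher in the clones, with ratios of 1.05 and 1.05 to parental cells, so complex I was near this ratio and complex V under it. For complexes I to IV, every library of each clone was above every parental library, whereas for complex V the clone 1 sums of 2798 to 2911 RPKM and the clone 19 sums of 2777 to 2796 RPKM overlapped the parental sums of 2703 to 2801 RPKM. A few abundant genes carried much of these sums. In clone 1, clone 19 and parental cells, Uqcr10 averaged 259, 220 and 139 RPKM and Uqcrq 219, 206 and 161 RPKM in complex III. Cox4i1 averaged 485, 442 and 311 RPKM in complex IV, and Atp5b 653, 635 and 742 RPKM in complex V. The ratios therefore do not describe a typical member.

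Complex I, the NADH dehydrogenase, had many members in either direction. Of its 36 tested members, 18 were higher, 12 lower and 6 not called in clone 1 (median log2 fold change 0.07), and 16 were higher, 6 lower and 14 not called in clone 19 (median 0.08). These counts include Ndufa4, its most abundant member at a mean of 269 RPKM, which carries a complex I name but is found with complex IV, and which rose by 0.19 and 0.28 (adjusted p = 4.1e-04 and 2.5e-05, limma). The median of complex I in clone 1 turned to -0.01 with quantile normalization. Among the 7 conserved core subunits that hold the flavin and most iron-sulfur clusters or form the ubiquinone site, 4 were higher and 3 lower in clone 1, and 2 were higher and 2 lower in clone 19.

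Ndufc1, an accessory subunit of the membrane arm, had the largest rise in complex I. It measured 41.1, 41.2 and 40.2 RPKM in clone 1, with 40.7, 42.8 and 42.5 RPKM in clone 19, against 26.0, 26.8 and 27.4 RPKM in parental cells. The 6 clone libraries all lay well above the parental ones, and the clones overlapped each other. The log2 fold change was 0.60 ± 0.028 in clone 1 and 0.64 ± 0.028 in clone 19 (SE, n = 3 against 3, adjusted p = 8.0e-09 and 5.3e-09, limma). Ndufc1 also held 2.17% of its 50-base stretches in common with pseudogenes, and with the median deviation of its 50 nearest genes taken off in each library (neighbours subtracted, from here on) its change was 0.30 and 0.28 and remained called.

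Ndufb8, an accessory subunit whose protein is widely used as a marker of assembled complex I, measured 133, 144 and 139.8 RPKM in clone 1, with 133, 131 and 127 RPKM in clone 19, against 90.9, 92.1 and 95.3 RPKM in parental cells. Again no clone library overlapped a parental one, and the change was 0.58 and 0.49 on the log2 scale (adjusted p = 2.1e-08 and 9.8e-08, limma). Its exons overlap those of another gene, and the counting is not stated to use strand, so reads of the partner may be included. Ndufb5, another accessory subunit, was higher by 0.33 and 0.38 (adjusted p = 1.9e-06 and 7.3e-07, limma), but by 0.05 and 0.07 with neighbouring genes subtracted, where it was not called.

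The lower members of complex I included core subunits. Ndufs3, a core subunit of the matrix arm, measured 27.9, 30.1 and 29.6 RPKM in clone 1, with 25.5, 28.9 and 27.1 RPKM in clone 19, against 34.9, 36.8 and 35.9 RPKM in parental cells. All 6 clone libraries were below the parental ones, with log2 fold changes of -0.29 and -0.39 (adjusted p = 1.2e-04 and 1.2e-05, limma). Ndufs3 shares 35.8% of its 50-base stretches with annotated pseudogenes, so its level is uncertain, and the calls ended with neighbouring genes subtracted (-0.00 and -0.11).

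Ndufs7, the core subunit with the last iron-sulfur cluster before ubiquinone, averaged 55.5 ± 3.03 RPKM in clone 1, 58.2 ± 1.42 RPKM in clone 19 and 68.1 ± 2.81 RPKM in parental cells (SD, n = 3 each). It fell in both (-0.29 and -0.22, adjusted p = 5.4e-05 and 4.6e-04, limma). Ndufa8, an accessory subunit on the intermembrane space side, was likewise lower (-0.24 and -0.28, adjusted p = 4.7e-05 and 1.7e-05, limma). With neighbouring genes subtracted, Ndufs7 stood at 0.07 and 0.11, the second of these called higher, and Ndufa8 at 0.04 and -0.00, not called.

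Complex II, succinate dehydrogenase, links the tricarboxylic acid cycle to the chain, and all 4 of its genes were higher in both clones. Sdhc, a membrane anchor, measured 94.2, 94.8 and 91.0 RPKM in clone 1, with 88.4, 91.4 and 91.7 RPKM in clone 19, against 76.7, 74.3 and 74.7 RPKM in parental cells (0.31 and 0.27, adjusted p = 4.3e-07 and 1.8e-06, limma). Sdhb, the iron-sulfur protein, changed by 0.26 and 0.29 (adjusted p = 2.7e-06 and 1.0e-06, limma).

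Sdhd, the other membrane anchor, measured 127, 132 and 130.4 RPKM in clone 1, with 119, 119 and 119 RPKM in clone 19, against 109.9, 110.0 and 109 RPKM in parental cells. Clone 1 stood above clone 19, and clone 19 above parental cells, with no overlap. The changes over parental were 0.24 and 0.11 (adjusted p = 4.2e-07 and 1.9e-04, limma). Sdha, the flavoprotein, changed least, by 0.13 and 0.06 (adjusted p = 3.5e-04 and 0.042, limma). The changes of Sdha and Sdhd in clone 19 turned to -0.03 and -0.00 with quantile normalization, and neither was called there. The call of Sdha in clone 19 was lost under 10 of 19 alternatives, among them the omission of any parental library, of clone 19 replicate 2 or 3, or of clone 1 replicate 2 (adjusted p up to 0.21, limma). With neighbouring genes subtracted, Sdhc (0.08 and 0.16) and Sdhd (0.12 and 0.19) remained higher in both clones, whereas Sdha (0.02 and -0.02) and Sdhb (-0.03 and 0.06) were not called.

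Complex III, the cytochrome bc1 complex, had 6 members higher, 1 lower and 1 not called in clone 1, and 6 higher and 2 lower in clone 19. Uqcr10, a small subunit of the membrane part, had the largest change of any abundant member. It measured 249.1, 267 and 260.4 RPKM in clone 1, with 223, 223 and 213 RPKM in clone 19, against 137, 141 and 139.7 RPKM in parental cells. The groups formed 3 separate levels with clone 1 on top. The log2 fold change was 0.89 ± 0.027 in clone 1 and 0.66 ± 0.027 in clone 19 (SE, n = 3 against 3, adjusted p = 4.0e-10 and 4.2e-09, limma). The 50 genes nearest to Uqcr10 had median changes of 0.52 and 0.36, and with them subtracted Uqcr10 remained higher by 0.37 and 0.30.

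Uqcrq, a subunit that contacts cytochrome b, measured 215, 229 and 213 RPKM in clone 1, with 209, 208 and 202 RPKM in clone 19, against 155, 164 and 163 RPKM in parental cells. It rose by 0.44 and 0.36 (adjusted p = 2.1e-07 and 1.4e-06, limma), but its neighbours rose as much (0.46 and 0.35), and with them subtracted it stood at -0.01 and 0.01. Uqcrc2, a core protein, rose by 0.33 and 0.31 (adjusted p = 7.6e-08 and 1.5e-07, limma), and Uqcrfs1, the Rieske iron-sulfur protein, by 0.18 and 0.14 (adjusted p = 2.2e-05 and 2.5e-04, limma), the second not called with quantile normalization (0.04). Uqcr11, another small subunit, was the exception in clone 1, with 49.2, 47.8 and 50.02 RPKM there and 57.3, 49.5 and 55.0 RPKM in clone 19, against 61.7, 62.3 and 65.3 RPKM in parental cells. Its change was -0.36 and -0.23 (adjusted p = 3.3e-05 and 0.0012, limma), and with neighbours subtracted 0.03 and 0.12, not called. Uqcrc1, the other core protein, did not pass in clone 1 (0.01, adjusted p = 0.69, limma) but fell in clone 19 (-0.13, adjusted p = 0.001, limma), though not with neighbours subtracted (-0.03, not called).

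In complex IV, 9 of 13 tested members were higher and 2 lower in clone 1, and 8 were higher and 2 lower in clone 19. Cox4i1, the ubiquitous form of the largest nuclear subunit, had the highest level in the complex. It measured 460.3, 501 and 493 RPKM in clone 1, with 445, 437 and 446 RPKM in clone 19, against 312, 306 and 314 RPKM in parental cells. All clone libraries were above all parental ones, and clone 1 was above clone 19. The change was 0.64 ± 0.028 in clone 1 and 0.51 ± 0.028 in clone 19 (SE, n = 3 against 3, adjusted p = 5.0e-09 and 3.4e-08, limma). With its neighbours subtracted, whose medians were 0.39 and 0.32, it was still higher by 0.25 and 0.19. Exons of another gene overlap those of Cox4i1.

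Cox7a2 rose by 0.32 and 0.19 (adjusted p = 4.4e-06 and 3.1e-04, limma), Cox6b1 by 0.29 and 0.32 (adjusted p = 3.3e-06 and 1.6e-06, limma), and Cox8a by 0.25 in both (adjusted p = 1.2e-04 and 1.3e-04, limma). Cox6b1 lies where the monomers of the dimer meet, and Cox8a is a small membrane subunit. Cox5a was lower, at 256, 266 and 253 RPKM in clone 1, with 237, 240.0 and 236 RPKM in clone 19, against 268, 283 and 279 RPKM in parental cells. It fell by 0.10 and 0.22 on the log2 scale (adjusted p = 0.0030 and 9.6e-06, limma). Cox7a2l, a factor that joins complexes III and IV into supercomplexes, fell by 0.22 and 0.13 (adjusted p = 2.1e-04 and 0.0069, limma). Both stood near 0 with neighbouring genes subtracted (0.02 and 0.02 for each).

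Several complex IV subunits exist as ubiquitous and tissue-restricted forms, and YAMC cells used the ubiquitous ones. Cox4i2, Cox6b2, Cox7b2, Cox8b and Cox8c were at or near 0 in every library and were not tested, as were Ndufa4l2, Ndufb4b and Ndufb4c of complex I. Cox6a1 averaged 182 ± 3.59 RPKM in clone 1, 187 ± 3.11 RPKM in clone 19 and 166 ± 4.26 RPKM in parental cells, whereas its muscle form Cox6a2 averaged 2.38 ± 0.744, 2.50 ± 0.216 and 2.79 ± 0.382 RPKM (SD, n = 3 each). Cox6a2 did not pass the test (adjusted p = 0.23 and 0.48, limma).

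Cox7a1, the form typical of heart and skeletal muscle, had the largest fold change of all members at a low level. It measured 3.18, 2.51 and 3.65 RPKM in clone 1, with 4.47, 4.34 and 3.52 RPKM in clone 19, against 1.24, 0.774 and 0.661 RPKM in parental cells. No clone library overlapped a parental one. The change was 1.39 ± 0.156 and 1.75 ± 0.156 (SE, n = 3 against 3, adjusted p = 1.1e-05 and 1.9e-06, limma). Cox7a1 met the filter of 1 RPKM in all clone libraries but in only 1 of 3 parental ones, so it entered the test through the clones. It stayed far below its ubiquitous form Cox7a2, at 125 ± 5.41, 114 ± 2.78 and 99.99 ± 2.79 RPKM. Of 7 striated muscle markers, only Tnnt2 reached 1 RPKM, and Myh7 and Myod1 were listed at 0 in all libraries.

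**Figure D2:**
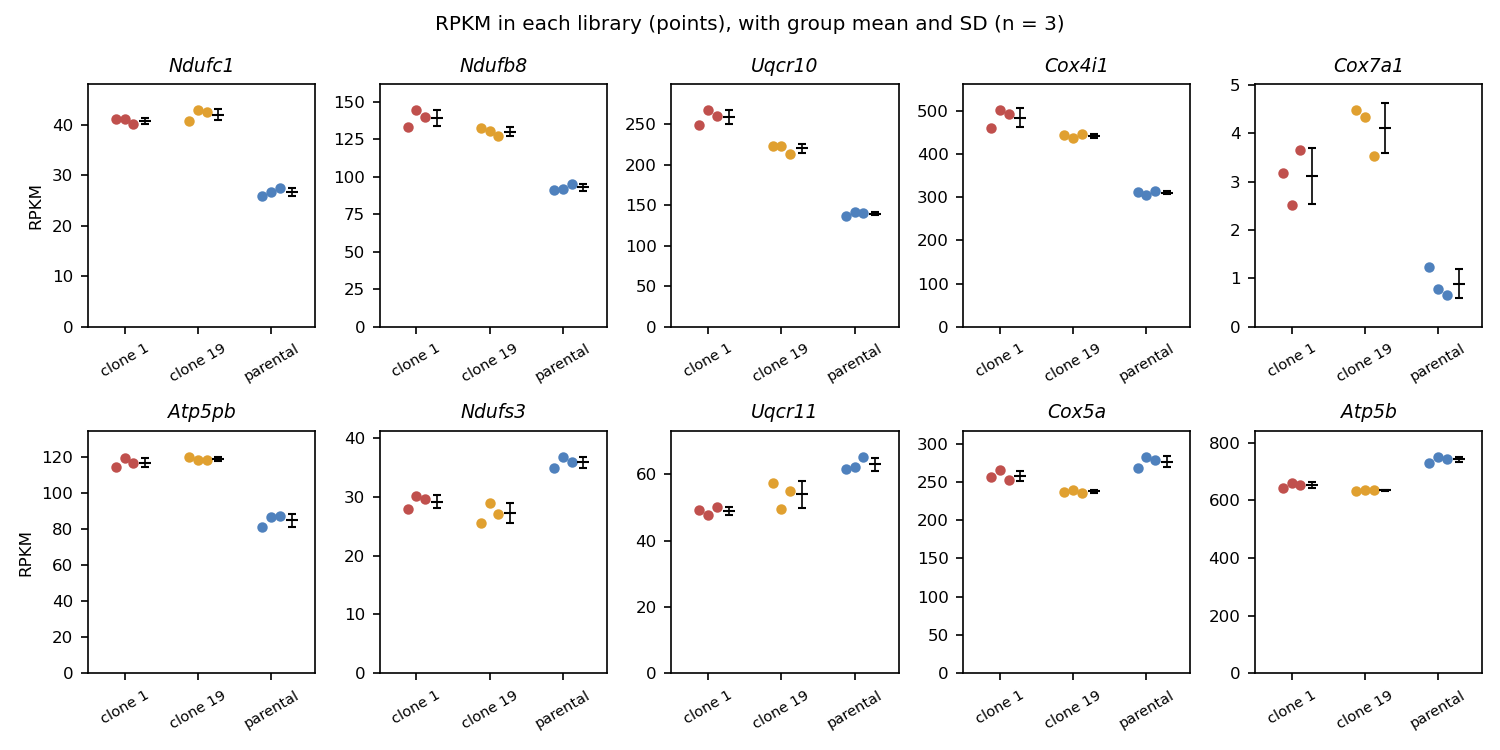
RPKM (y axis, from 0) of 10 members in each library of clone 1, clone 19 and parental cells (x axis), with the group mean and SD (n = 3) beside the points. In the first 6 panels both clones lie above parental cells, and in the last 4 both lie below, as in Atp5b at 653 and 635 RPKM against 742 RPKM.

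Complex V had 10 members higher, 3 lower and 4 not called in clone 1, and 10 higher, 4 lower and 3 not called in clone 19. Its parts did not move alike. All 4 peripheral stalk genes, whose products hold the catalytic head still while the rotor turns, were called higher in both clones. Atp5pb, subunit b, measured 114, 119 and 117 RPKM in clone 1, with 119.8, 118 and 118 RPKM in clone 19, against 80.7, 86.7 and 86.9 RPKM in parental cells. It rose by 0.46 and 0.48 (adjusted p = 8.5e-08 and 6.2e-08, limma), with no overlap of clone and parental libraries, and by 0.17 and 0.18 with neighbours subtracted. Atp5h, subunit d, rose by 0.35 and 0.46 (adjusted p = 2.6e-06 and 2.6e-07, limma), Atp5o, which caps the stalk, by 0.22 and 0.13 (adjusted p = 1.1e-05 and 7.7e-04, limma), and Atp5j, coupling factor 6, by 0.19 and 0.07 (adjusted p = 2.2e-05 and 0.024, limma). In clone 19 the call of Atp5j was lost under 6 of 19 alternatives (adjusted p up to 0.34, limma), among them the omission of clone 19 replicate 1, parental replicate 1 or parental replicate 2, and its change ran from -0.02 with quantile normalization to 0.08. That of Atp5o was lost with quantile normalization (0.04). Atp5h shares 46.6% of its 50-base stretches with pseudogenes.

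The 5 genes of the catalytic head and central stalk split. Atp5b, the catalytic beta subunit and the most abundant member of all, measured 643.5, 661 and 655 RPKM in clone 1, with 633, 636 and 637 RPKM in clone 19, against 730.4, 751 and 744 RPKM in parental cells. It was lower by 0.18 and 0.22 on the log2 scale with no overlap (log2 fold change -0.18 ± 0.016 and -0.22 ± 0.016, SE, n = 3 against 3, adjusted p = 1.7e-06 and 3.8e-07, limma). Atp5a1, the alpha subunit that alternates with beta in the head, went the other way, at 392, 392 and 394 RPKM in clone 1, with 344, 355 and 346 RPKM in clone 19, against 316, 327 and 323 RPKM in parental cells. It rose by 0.28 and 0.11 (adjusted p = 9.9e-08 and 2.1e-04, limma), although with quantile normalization its change in clone 19 was -0.04 and not called.

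Atp5d, the delta subunit of the central stalk, fell by 0.26 and 0.28 (adjusted p = 2.0e-05 and 9.7e-06, limma), and Atp5e, the epsilon subunit, rose by 0.13 and 0.16 (adjusted p = 0.0066 and 0.002, limma), where the first call ended with neighbours subtracted (0.06) and both with quantile normalization (0.02 and 0.05). Atp5c1, the gamma subunit that turns inside the head, did not pass the test in clone 1 (-0.05, limma adjusted p = 0.098) and fell by 0.08 in clone 19 (adjusted p = 0.016, limma), a call lost with neighbours subtracted. Genes near Atp5b and Atp5d were lower by more than these genes were, with medians of -0.36 and -0.34 around Atp5b and -0.39 and -0.37 around Atp5d. With neighbours subtracted both turned to higher, Atp5b by 0.18 and 0.11 and Atp5d by 0.13 and 0.08, and all 4 values were called.

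The c ring, the rotor in the membrane, is made of 1 protein that 3 genes encode with different targeting sequences. Atp5g3 held nearly all of the RPKM listed for these 3 genes. It averaged 498 ± 8.62 RPKM in clone 1, 515 ± 1.00 RPKM in clone 19 and 520.0 ± 9.22 RPKM in parental cells (SD, n = 3 each). It fell by 0.06 in clone 1 (adjusted p = 0.01, limma) and was not called in clone 19, and with neighbours subtracted it was higher in both, by 0.20 and 0.22. Atp5g1 averaged 14.6 ± 1.25, 13.7 ± 1.08 and 11.5 ± 1.43 RPKM, and was called higher in each clone (0.34 and 0.24, limma adjusted p = 0.0052 and 0.030). The call of Atp5g1 in clone 19 was lost under 6 of 19 alternatives, among them the omission of clone 19 replicate 1 or 3 or parental replicate 1 or 2, and its change ran from 0.15 to 0.33. Atp5g2 averaged 1.16 ± 0.373, 1.08 ± 0.202 and 1.29 ± 0.198 RPKM and did not pass the test. Because 57.5% of its 50-base stretches occur in pseudogenes, its level and the share held by Atp5g3 are uncertain. Of the accessory membrane subunits, Atp5md rose most, by 0.49 in both clones (adjusted p = 1.4e-05 and 1.6e-05, limma).

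Levels of some members rest on uncertain counting. Many respiratory chain genes have processed pseudogenes, copies of their RNA inserted in the genome, and reads that fit both may be dropped or split. In the GENCODE M21 transcripts, 44 tested members had no 50-base stretch in a pseudogene transcript, and their median level was 87.7 RPKM, with 4 under 20 RPKM. The 25 members with up to 25% of such stretches had a median of 67.7 RPKM. The 9 members with more, which were Ndufa12, Ndufb4, Ndufs3, Ndufs5, Uqcrb, Cox7c, Atp5g2, Atp5h and Atp5l, had a median of 10.04 RPKM, with 6 under 20 RPKM. Of the 44 members without a shared stretch, 31 were higher and 8 lower in clone 1, and 30 were higher and 5 lower in clone 19. Exons of another gene overlapped those of 29 tested members.

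**Figure D3:**
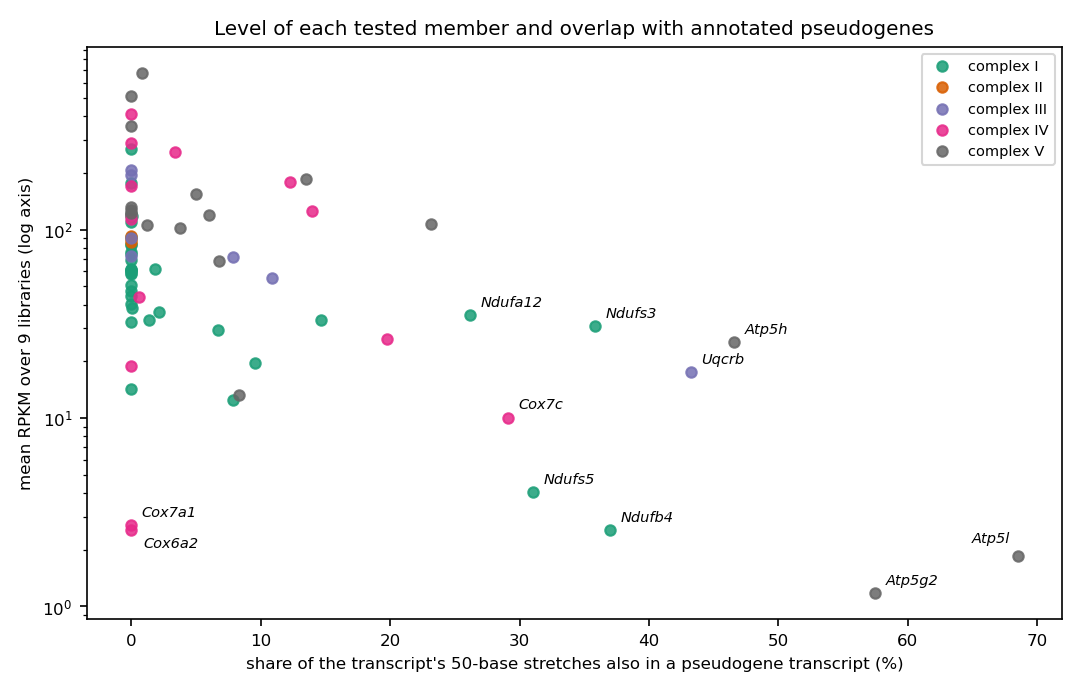
Mean RPKM over the 9 libraries (y axis, log scale) of each tested member against the share of its transcript's 50-base stretches that also occur in an annotated pseudogene transcript (x axis, percent), coloured by complex. The 9 members at 25% or more, named in the plot, have a median of 10.04 RPKM, and the 44 at 0% have a median of 87.7 RPKM.

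The promoters of these genes are known for binding sites of NRF1, of ETS factors such as GABPA, of YY1 and of ERR alpha. Windows of 250 bases before to 50 bases after the start of transcription, from RefSeq on GRCm38.p6, were found for 69 members, in 74 windows, and for 32851 windows of all genes. The NRF1 palindrome, whose letters are the longer run of capitals in Cox6a1 shown here, was in 6.76% of the members' windows and 0.971% of all windows, on either strand. The ETS letters CCGGAAG were in 23.0% and 8.86%, the YY1 letters AAGATGGCG in 9.46% and 1.4%, and the ERR alpha letters TCAAGGTCA in 2.7% and 0.423%. Of the members with a window, CCGGAAG was found for 12 of 37 that were higher in clone 1 and 3 of 18 that were lower, and for 13 of 36 higher and 3 of 14 lower in clone 19. In clone 1 the NRF1 palindrome was found for 2 higher and 1 lower, AAGATGGCG for 5 and 1, and TCAAGGTCA for 1 and 1. In clone 19 these counts were 2 and 1, 4 and 2, and 1 and 0. A link between motif and direction was not tested.

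The 250 bases before the start are shown for 3 higher members with motif matches (Cox6a1, Cox6b1 and Atp5h), for the lower member Ndufs3, and for Uqcr10 and Atp5b, the abundant members with the largest rise and the highest level, in which none of the motifs was found. Capitals mark the NRF1 palindrome or CCGGAAG, the second also in its reverse complement CTTCCGG, and each sequence is on the strand of its gene.
Cox6a1 (chr5:115348959-115349208, minus strand): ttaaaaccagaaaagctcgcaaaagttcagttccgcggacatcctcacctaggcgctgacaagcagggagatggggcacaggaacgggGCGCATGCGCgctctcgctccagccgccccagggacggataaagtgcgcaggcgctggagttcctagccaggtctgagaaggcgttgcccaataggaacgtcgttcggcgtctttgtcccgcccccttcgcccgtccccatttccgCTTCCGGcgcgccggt
Cox6b1 (chr7:30626115-30626364, minus strand): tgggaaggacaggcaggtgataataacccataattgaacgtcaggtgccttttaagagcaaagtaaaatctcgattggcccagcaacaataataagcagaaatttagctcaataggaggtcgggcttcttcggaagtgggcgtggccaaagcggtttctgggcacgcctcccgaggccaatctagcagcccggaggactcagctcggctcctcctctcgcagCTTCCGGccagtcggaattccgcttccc
Atp5h (chr11:115419920-115420169, minus strand): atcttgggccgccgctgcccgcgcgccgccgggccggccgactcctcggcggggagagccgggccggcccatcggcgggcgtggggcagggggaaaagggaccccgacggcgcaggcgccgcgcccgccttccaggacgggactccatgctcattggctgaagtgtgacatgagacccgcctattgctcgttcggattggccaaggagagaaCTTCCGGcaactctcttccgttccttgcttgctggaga
Ndufs3 (chr2:90904722-90904971, minus strand): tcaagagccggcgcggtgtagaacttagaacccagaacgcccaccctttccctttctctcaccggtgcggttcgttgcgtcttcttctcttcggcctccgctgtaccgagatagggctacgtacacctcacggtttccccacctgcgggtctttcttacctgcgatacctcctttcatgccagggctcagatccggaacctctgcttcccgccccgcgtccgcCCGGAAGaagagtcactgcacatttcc
Uqcr10 (chr11:4704345-4704594, minus strand): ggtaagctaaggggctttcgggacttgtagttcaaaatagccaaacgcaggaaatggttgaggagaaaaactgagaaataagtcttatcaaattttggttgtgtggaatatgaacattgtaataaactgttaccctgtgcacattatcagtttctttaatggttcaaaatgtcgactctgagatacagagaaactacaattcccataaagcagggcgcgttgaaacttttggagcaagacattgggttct
Atp5b (chr10:128083057-128083306, plus strand): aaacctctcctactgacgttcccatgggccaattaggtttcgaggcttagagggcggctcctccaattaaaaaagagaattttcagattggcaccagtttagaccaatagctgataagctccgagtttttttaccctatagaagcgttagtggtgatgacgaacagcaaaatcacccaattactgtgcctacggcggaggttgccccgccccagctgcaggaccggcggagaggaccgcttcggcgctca
Counted from the start, the matches in Cox6a1 begin at -162 and -16, that in Cox6b1 at -28, that in Atp5h at -38 and that in Ndufs3 at -27. Ndufs3 has another match 2 bases after the start, not shown. A match is a description of letters, not evidence of binding. Ndufc1 had no match before the start and an AAGATGGCG match 23 bases into the transcribed part.

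On several chromosomes all members moved in the direction of the other genes there. All 5 tested members on chromosome 10 (Ndufs7, Ndufa12, Uqcr11, Atp5b and Atp5d) were lower in both clones, and the 552 other tested genes there had median log2 fold changes of -0.30 and -0.29. All 3 on chromosome 3 (Ndufc1, Ndufb5 and Atp5pb) were higher in both, and the 560 other genes had medians of 0.28 and 0.30. All 4 on chromosome 11 (Uqcr10, Uqcrq, Atp5g1 and Atp5h) were higher in both, with medians of 0.15 and 0.12 for the 992 other genes. All 5 on chromosome 19 were also higher in both, with medians of 0.10 and 0.12 for 423 other genes.

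Some members went apart from their chromosome. On chromosome 8, where other genes had medians of 0.05 and 0.06, Cox4i1 was higher while Ndufa13 and Ndufb7 were lower in both clones. The 50 nearest genes had medians of 0.39 and 0.32 around Cox4i1 and -0.11 and -0.09 around Ndufb7, in the direction of each gene. Around Ndufa13 they were 0.03 and 0.04. With neighbours subtracted, Ndufb7 was not called (-0.04 and -0.06), and Ndufa13 remained lower (-0.14 and -0.18). The calls of Ndufa13 were lost under 7 of 19 alternatives in clone 1 (without clone 1 replicate 1 or 3 or parental replicate 2 or 3, for example) and under 2 in clone 19 (without clone 19 replicate 2 or parental replicate 3), with changes of -0.17 to -0.08 and -0.19 to -0.10. On chromosome 13 all 6 members were higher in clone 1, with a median of 0.19, beside 0.05 for the other genes. Across the 78 tested members, the change correlated with the median change of the 50 nearest tested genes at Pearson r = 0.73 and Spearman rho = 0.75 in clone 1 and at 0.66 and 0.72 in clone 19. These are correlations across genes that share libraries and often neighbourhoods, and genes are not independent replicates. Of the 18 members lower in clone 1, 16 had neighbours with a median below -0.1, and of the 14 lower in clone 19, 10 did. Among all 78 tested members, 17 had such neighbours in clone 1 and 16 in clone 19. The share over all tested genes was not counted.

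With the neighbours subtracted in each library, 41 members were higher and 4 lower in clone 1, and 48 were higher and 4 lower in clone 19. The lower members were then all of complex I. Complex V had 13 of 17 members higher in each clone and none lower, complex III 5 of 8 in each, and complex IV 7 of 13 in clone 1 and 9 of 13 in clone 19. Of the 65 calls in clone 1, 35 remained, 24 were lost and 6 turned round, and of the 58 in clone 19, 41 remained, 14 were lost and 3 turned round. Another 4 and 8 members gained a call. Across all tested genes this subtraction gave 4224 higher and 4109 lower in clone 1 and 4017 and 3930 in clone 19. What moved these stretches of chromosome was not tested.

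**Figure D4:**
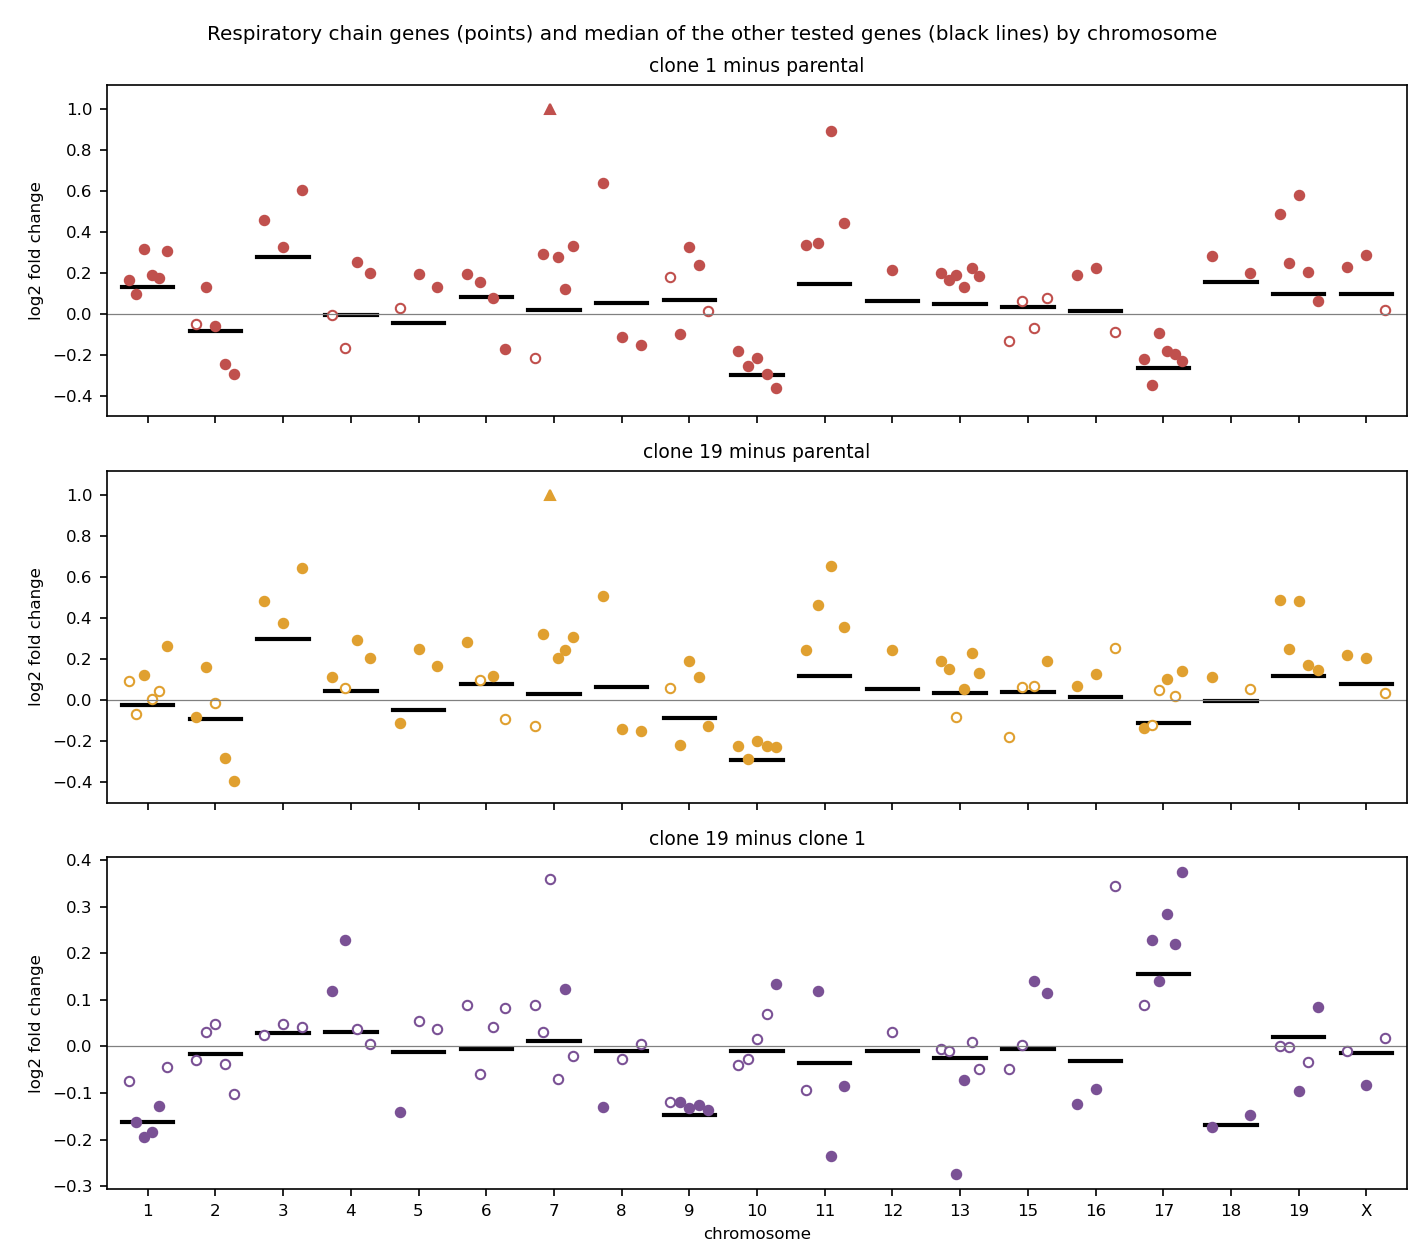
Log2 fold change (y axis) of each tested member (points, filled where called) by chromosome (x axis), with the median of the other tested genes of that chromosome as a black line, in 1 panel for each comparison. Triangles mark Cox7a1, whose changes of 1.39 and 1.75 lie beyond the axis, and the 5 members of chromosome 10 lie below 0, as their line does, in both comparisons with parental cells.

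The clones also differed from each other. In clone 19 against clone 1, 13 members were higher and 20 lower, which is 42.3% of the tested members, beside 43.0% of all tested genes (18.5% higher and 24.5% lower). No member differed by 1.5-fold, beside 1.76% of all tested genes (1.41% higher and 0.350% lower), and the median difference was -0.00. Complex I, with 36 of the 78 tested members, held 11 of the 13 higher and 8 of the 20 lower ones. With median-ratio scaling the split was 16 higher and 16 lower. Without clone 19 replicate 1, 8 members were higher.

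Ndufv3, an accessory subunit of the NADH-oxidizing module, differed most. It measured 16.5, 15.6 and 15.8 RPKM in clone 19, against 11.8, 12.6 and 12.2 RPKM in clone 1, with parental libraries between them at 14.0, 14.2 and 14.98 RPKM. The difference was 0.37 ± 0.037 on the log2 scale (SE, n = 3 against 3, adjusted p = 3.1e-05, limma), and it remained at 0.22 with neighbours subtracted (adjusted p = 0.0015, limma). Ndufv3 was thus called higher in clone 19 (0.14) and lower in clone 1 (-0.23) against parental cells.

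Ndufb10, an accessory subunit of the membrane arm, showed the same order, with 82.2, 80.6 and 80.99 RPKM in clone 19, against 64.1, 67.1 and 68.8 RPKM in clone 1, beside 74.8, 75.5 and 76.5 RPKM in parental cells. The difference of 0.28 (adjusted p = 1.5e-05, limma) shrank to 0.05 with neighbours subtracted (adjusted p = 0.19, limma). Both genes are on chromosome 17, where 5 of 6 members were higher in clone 19 than in clone 1 and the 581 other tested genes had a median of 0.15. All 6 members of this chromosome were lower than parental in clone 1, and 1 was in clone 19. Ndufs5 and Ndufa11 were each higher in clone 19 than in clone 1 by 0.23 (adjusted p = 0.040 and 0.0053, limma). The call of Ndufs5 was lost under 8 of 19 alternatives, with adjusted p up to 0.12 (limma), among them the replicate block (adjusted p = 0.06) and the omission of any clone 19 library or of clone 1 replicate 1 or 3.

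Ndufs6, a zinc-binding accessory subunit, was lower in clone 19, at 29.7, 32.1 and 29.0 RPKM, than in clone 1, at 35.1, 36.8 and 38.1 RPKM. The difference was -0.27 (adjusted p = 3.7e-04, limma), and -0.26 with neighbours subtracted (adjusted p = 0.0014, limma). Uqcr10 differed by -0.23 (adjusted p = 8.3e-05, limma), Ndufb3 by -0.19 (adjusted p = 0.0041, limma) and Ndufs1, the largest core subunit, by -0.18 (adjusted p = 3.6e-04, limma). Members on chromosomes 1, 9 and 18 shared in this: 4 of 6, 4 of 5 and 2 of 2 were lower in clone 19, and the other genes of these chromosomes had medians of -0.16, -0.15 and -0.17. These 3 calls, and those of Ndufs5 and Ndufa11, ended with neighbours subtracted (-0.07, -0.02, -0.03, 0.16 and 0.06). With neighbours subtracted, 6 of the 33 calls between the clones remained.

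Lists of genes that build or serve the chain are set beside the background of 39.8% higher and 32.6% lower in clone 1 and 36.7% and 32.3% in clone 19. Of 48 tested assembly factors, 27 were higher and 8 lower in clone 1, and 21 were higher and 8 lower in clone 19, with median log2 fold changes of 0.11 and 0.09. Uqcc3, which stabilizes cytochrome b during assembly of complex III, averaged 13.8 ± 0.957 RPKM in clone 1 and 14.3 ± 0.666 RPKM in clone 19, against 8.38 ± 0.639 RPKM in parental cells (SD, n = 3 each). It rose by 0.69 and 0.74 (adjusted p = 1.7e-06 and 1.1e-06, limma). Cox11, which delivers copper to complex IV, rose by 0.69 and 0.40 (adjusted p = 7.8e-08 and 6.8e-06, limma). Lrpprc, which stabilizes mitochondrial messenger RNAs, fell by 0.48 and 0.28 (adjusted p = 1.4e-06 and 1.0e-04, limma). Uqcc2, also on this list, averaged 63.9 RPKM in clone 1, 72.9 RPKM in clone 19 and 87.6 RPKM in parental cells. It fell by 0.45 and 0.26 (adjusted p = 8.8e-07 and 7.9e-05, limma), opposite to Uqcc3.

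The 78 mitochondrial ribosomal protein genes had 47 higher and 16 lower in clone 1 and 41 higher and 16 lower in clone 19, with medians of 0.15 and 0.12. Of 17 tricarboxylic acid cycle genes, 9 were higher and 3 lower in clone 1 and 7 higher and 5 lower in clone 19. Idh3a, the catalytic subunit of the NAD-dependent isocitrate dehydrogenase, rose by 0.47 and 0.23 (adjusted p = 5.1e-09 and 1.6e-06, limma), and Cs, citrate synthase, fell by 0.27 and 0.21 (adjusted p = 3.5e-07 and 2.7e-06, limma). Cyc1, the cytochrome c1 of complex III whose name falls outside the rule, rose by 0.14 and 0.15 (adjusted p = 1.3e-04 and 1.2e-04, limma).

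Among 18 tested regulators of mitochondrial biogenesis and mitochondrial DNA, 7 were higher and 7 lower in clone 1, and 3 were higher and 4 lower in clone 19. Ppargc1b, a coactivator of mitochondrial genes, averaged 4.25 ± 0.108 RPKM in clone 1 and 4.23 ± 0.178 RPKM in clone 19, against 2.61 ± 0.184 RPKM in parental cells (SD, n = 3 each), and rose by 0.61 in both (adjusted p = 2.1e-06 and 2.6e-06, limma). Tfb1m, also on this list, rose by 0.73 and 0.49 (adjusted p = 6.2e-06 and 1.7e-04, limma). Nrf1, the factor whose letters were searched above, rose by 0.16 and 0.12 (adjusted p = 0.0015 and 0.0089, limma). Tfam, which packages and transcribes mitochondrial DNA, fell by 0.30 and 0.33 (adjusted p = 4.0e-06 and 2.5e-06, limma), and Polrmt, the mitochondrial RNA polymerase, by 0.45 and 0.50 (adjusted p = 9.8e-06 and 5.0e-06, limma).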

How the data were processed

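The authors deposited 1 table of RPKM values for 28059 gene IDs, with 1 column for each of the 9 libraries. RNA was column-purified and TruSeq libraries were prepared, per the labels' protocols. The authors' tools, per the submitters' processing notes, were GSNAP and DESeq, and the authors' build was NCBIM37, with no version or role. Not given in the sources used here were the annotation, the counting rule and any size factors behind the RPKM values.

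IDs were named through the RefSeq table of GRCm38 (24998 IDs). Because the builds differ, the table served for names and gene order, and the only coordinates given are those of RefSeq promoter sequences on GRCm38.p6. Depth was estimated from the smallest steps of low values, and no test on counts was made.

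The test was limma (version 3.58.1, under R 4.3.3), with its trend option, applied to log2(RPKM + 0.5) of 12568 genes with at least 1 RPKM in at least 3 libraries. A single model of group means held all 9 libraries and left 6 residual degrees of freedom. Benjamini-Hochberg adjustment covered all tested genes of a contrast, and calls were made at adjusted p-values under 0.05. Fold changes on this scale understate the change of low genes. Data of 12568 genes were simulated for clone 1 minus parental, with 50 genes changed at each size. The fit recovered 32% of changes of 0.15 (log2), 70% of those of 0.25 and 90% of those of 0.5. In the real data 72.4% of tested genes were called, so these rates do not give the sensitivity of the reported test.

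The members, lists and tests were chosen with earlier results of these data known. Named genes were, per complex, up to 3 in each direction called alike in both clones with the largest mean change, up to 4 in each direction between the clones, the tissue isoforms, the complex II genes and the extremes of level. Lists gave up to 3 genes in each direction, of which some are named. Other genes were named where a group of 5 or fewer, or a chromosome, was spelled out. Alternatives were other pseudocounts, filters and scalings, fits without the trend, with array weights, with a replicate block or with 2 groups alone, leaving out each library, a 1.5-fold threshold, subtraction in each library of what the 50 nearest tested genes did at the median, and smaller sets of members. Sets without pseudogene stretches or overlapping exons were added after seeing the data.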

Additional observations from a re-analysis of the deposited data

Results flagged for a closer look

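Members are listed here where clone 19 and clone 1 differed by limma's test of the difference itself (log2 difference, clone 19 minus clone 1, adjusted p under 0.05). Clone 19 was higher for Ndufv3 (0.37), Ndufb10 (0.28), Ndufs5 (0.23), Ndufa11 (0.23), Uqcr11 (0.13) and Atp5h (0.12). Clone 19 was lower for Ndufs6 (-0.27), Uqcr10 (-0.23), Ndufb3 (-0.19), Ndufs1 (-0.18), Cox7a2 (-0.13), Cox4i1 (-0.13), Sdhd (-0.13), Cox5a (-0.12), Ndufb8 (-0.10), Uqcrq (-0.085) and Sdha (-0.073). Over all tested genes, 43.0% differed by this test. Of these 17, Ndufv3, Ndufs6 and Ndufb8 kept direction and call with neighbouring genes subtracted (0.22, -0.26 and -0.10), and Sdhd turned to 0.070. Calls were lost under 10 of 19 other alternatives for Uqcrq, 9 for Uqcr11, 8 for Ndufs5 (the replicate block among them), 7 each for Ndufb8 and Sdha, and 1 for Atp5h (without clone 19 replicate 3).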

How the results depend on the processing

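Whether the replicate numbers of the labels pair the libraries is not settled by these data. Correlations of same-numbered deviations ran from -0.04 to 0.12, and those of differently numbered ones from -0.14 to 0.08. Between clone 1 and parental cells the same-numbered ones were 0.12, 0.07 and 0.07. With the replicate block, 46 members were higher and 16 lower in clone 1, 45 and 14 in clone 19, and 13 and 21 in clone 19 minus clone 1.

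In clone 1 minus parental, the median of members was 0.13 with median-ratio scaling, 0.077 with quantile normalization and 0.10 with neighbouring genes subtracted, where 4 members were lower. With a library left out it ran from 0.14 to 0.19. At 1.5-fold, 4 members were called, 4 higher and 0 lower. Without pseudogene stretches 39 were called, 31 higher and 8 lower, of 44, and without overlapping exons 43, 31 of them higher, of 49.

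In clone 19 minus parental, the median was 0.050 with quantile normalization, 0.15 without pseudogene stretches and 0.15 without overlapping exons. At 1.5-fold, 3 were called, 3 higher and 0 lower. Without pseudogene stretches 35 were called, 5 of them lower, and with neighbouring genes subtracted 4 were lower.

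Between the clones, 13 were called with neighbouring genes subtracted, 7 higher and 6 lower, and 0 at 1.5-fold. Without pseudogene stretches 21 were called, 8 higher and 13 lower, and without overlapping exons 20, 10 of them lower. With a library left out, the count of higher members ran from 8 (without clone 19 replicate 1) to 15 and the median from -0.031 (without clone 1 replicate 1) to 0.0070. The smaller sets hold fewer members by construction, and the cause of the other shifts was not tested.

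Among values called in either fit, subtraction of neighbouring genes turned the sign in clone 1 for Atp5b (0.18), Atp5d (0.13), Atp5g3 (0.20), Cox5a (0.015), Cox7a2l (0.024), Ndufa8 (0.041), Ndufb10 (0.23), Ndufs7 (0.067), Ndufv3 (0.074), Sdhb (-0.032), Uqcr11 (0.030) and Uqcrq (-0.013). In clone 19 it did so for Atp5b (0.11), Atp5d (0.082), Atp5g3 (0.22), Cox5a (0.021), Cox7a2l (0.016), Ndufs7 (0.11), Sdha (-0.018) and Uqcr11 (0.12), and between the clones for Cox5a (0.0057), Cox7a2 (0.029), Sdhc (0.083), Sdhd (0.070) and Uqcrq (0.021). Quantile normalization turned Sdha (-0.035) and Sdhd (-0.0038) in clone 19. Of the other values of named members, 2371 kept direction and side of the threshold, 89 lost the call, 46 gained one, and 38, not called in either fit, changed sign, 6 of them between the clones with neighbouring genes subtracted. Atp5g2, Ndufb4, Cox6a2 and Atp5l averaged under 3 RPKM and were not called in any comparison, and the part that low counts had in this was not tested.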
